A study of Mus musculus with 6 samples.

Results

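The genes described here encode the proteins of the cytosolic ribosome, together with the close paralogs that carry the same family of names. They were chosen by symbol among protein-coding genes (Rpl or Rps with a number and at most a short suffix, the P-stalk genes Rplp0, Rplp1 and Rplp2, and Rpsa). This gave 81 of the 54532 genes in the table, 49 of the large subunit and 32 of the small subunit. The rule itself uses symbols and no measured value, but the family was picked with earlier results of these data known.

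RNA was taken from whole mouse testis in 6 libraries, 3 from wild-type (WT) mice and 3 from mice labelled as knockout (KO) for 1700052I22Rik, a long intergenic non-coding RNA gene on chromosome 12. The stated purpose was to learn what this gene does in spermatogenesis. The labels give neither age nor strain, do not say how the allele was made, and do not say whether the libraries of a group came from separate animals. The p-values therefore measure the spread between these libraries, which may be technical. The libraries held 17635045 to 18117593 reads assigned to genes. The target had 185, 175 and 218 reads in the WT libraries and 0 in each KO library, so the labels held for it. The libraries WT 1 and KO 2 stood apart from the other 4 on the first principal component of all tested genes, which carried 26.6% of the variance, with scores of -22.8 and -30.2 against 6.98 to 17.5. The counts of members and the fold changes of the genes described at most length are therefore also given without this pair.

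A ribosome is built from 2 subunits. The small one decodes the message and the large one joins amino acids, and each protein is needed in about equal amounts. Most messages for these proteins begin with a run of pyrimidines (the TOP motif), through which their translation is tuned together by LARP1 and the mTOR pathway. In the male germ line the X chromosome is silenced during meiosis, and several X-linked ribosomal protein genes have autosomal copies expressed in the testis, of which Rpl39l is the best known. Processed pseudogenes, which are copies of spliced messages inserted elsewhere in the genome, are abundant for this family, and reads from a gene and a near-identical copy are hard to tell apart.

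Rps28, a small subunit protein near the messenger RNA exit, had the largest difference among the members, and its sequence bears on how it could be counted. The coding sequence of its 271-base transcript, on the minus strand of chromosome 17 (mm10, chr17:33819027-33824562), has 210 bases and is shown in full, since the processed pseudogene Gm10443 (chr6:86334031-86334240) matches it at 100% identity over 100% of its length.
Rps28 coding sequence: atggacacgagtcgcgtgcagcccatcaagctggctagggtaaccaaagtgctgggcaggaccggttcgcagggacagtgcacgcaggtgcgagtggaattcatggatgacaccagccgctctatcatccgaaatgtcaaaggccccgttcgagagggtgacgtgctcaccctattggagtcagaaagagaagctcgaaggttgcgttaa

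Rpl39 and Rpl39l make a different case. Rpl39, a small protein that lines the exit tunnel of the large subunit, lies on the X chromosome (minus strand, chrX:37082520-37085402), and Rpl39l lies on chromosome 16 (plus strand, chr16:10170226-10174911). Their coding sequences both have 156 bases and are shown for the bases at which they differ. They differ at 23 bases (85.3% identity), of which 16 fall at the third codon position, and the longest stretch they share is 38 bases. Capitals mark the bases that differ between the pair.
Rpl39 coding sequence: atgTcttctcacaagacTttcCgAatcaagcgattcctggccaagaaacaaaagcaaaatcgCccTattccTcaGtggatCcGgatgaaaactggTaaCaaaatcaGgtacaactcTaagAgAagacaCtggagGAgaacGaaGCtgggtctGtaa
Rpl39l coding sequence: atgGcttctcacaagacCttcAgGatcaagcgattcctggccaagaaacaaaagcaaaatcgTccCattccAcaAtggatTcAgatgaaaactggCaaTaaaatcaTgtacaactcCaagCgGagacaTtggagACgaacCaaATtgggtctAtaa

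The ribosomal protein messages together made up 12624, 13684 and 13334 CPM (reads scaled to library size with TMM factors) in the WT libraries 1, 2 and 3. They made up 13088, 11473 and 12503 CPM in the KO libraries, in the same order, which holds for all values listed below. The group means were 13214 ± 540 and 12354 ± 818 CPM (SD, n = 3), and the ranges of the groups overlapped. KO 2 was the lowest of the 6 libraries and WT 2 the highest. In bulk RNA, fewer cells that express these genes and less of their RNA per cell cannot be told apart.

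Large and small subunit sums varied in parallel from library to library. The large subunit genes summed to 7980 ± 370 CPM in WT and 7444 ± 520 CPM in KO, and the small subunit genes to 5234 ± 174 and 4910 ± 299 CPM (SD, n = 3). The ratio of large to small subunit sums was 1.496, 1.53 and 1.54 in the WT libraries and 1.52, 1.497 and 1.53 in the KO libraries. Its group means were both 1.52, with SDs of 0.025 and 0.016, so the groups differed by less than the spread within them.

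**Figure D1:**
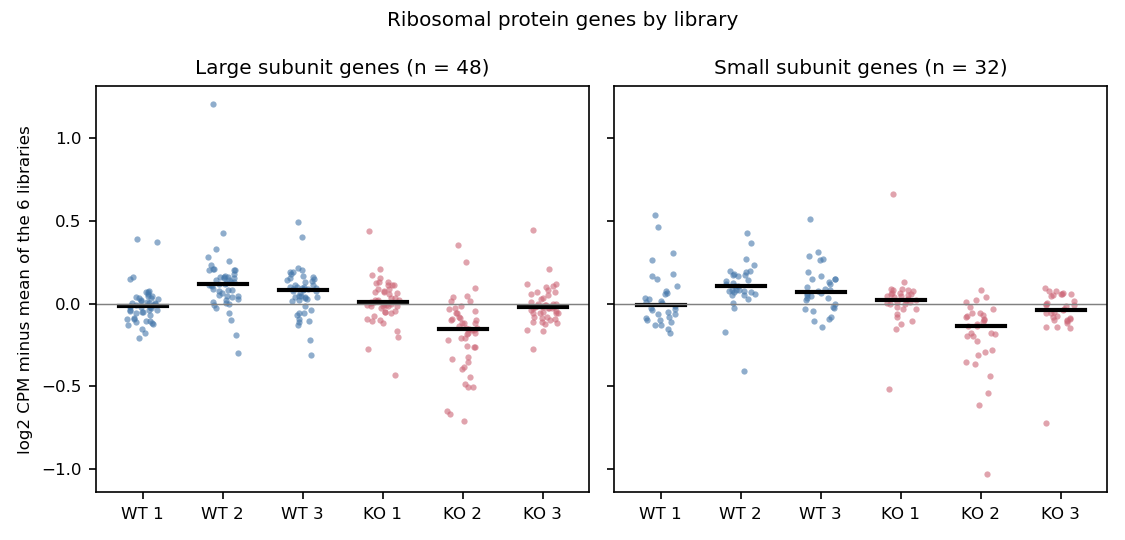
Each point is 1 tested ribosomal protein gene, plotted as its log2 CPM minus its mean over the 6 libraries (vertical axis), by library, for the 48 large and 32 small subunit genes; black bars are medians. In both panels WT 2 and WT 3 lie above 0 and KO 2 lies lowest, with medians of -0.15 and -0.14.

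The plot of deviations by library shows where the members sat in each sample. Their median deviation from the mean of the 6 libraries, in log2 CPM, was -0.02, 0.12 and 0.08 in WT and 0.02, -0.15 and -0.02 in KO. KO 2 held the lowest value for 49 of the 80 tested members, while WT 2 held the highest for 36 and WT 3 for 25. WT 1, which pairs with KO 2 on the principal component, did not lie as low: 36 of 80 members lay above their mean there, against 11 in KO 2. It was the lowest of the WT libraries, since WT 2 and WT 3 had 70 and 60 such members. KO 1 and KO 3 had 47 and 25. Over all tested genes the median deviation lay within 0.01 of 0 in every library.

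Of the 81 members, 80 passed the filter on low counts, and Rpl3l, a paralog of Rpl3 known from muscle, did not (2 to 8 reads a library). None of the 80 was called in KO against WT by edgeR's quasi-likelihood test at an adjusted p under 0.05, where 1 of 19320 genes was called (0.00518%), the target itself. At an unadjusted p under 0.05, 15 members were lower in KO and 0 higher, which is 18.8% of the tested members against 2.22% (lower) and 2.41% (higher) of all tested genes. DESeq2 called 1 member, Rps28. The log2 fold change was below 0 for 70 of 80 members (87.5%), against 50.7% of all tested genes. Its median was -0.11, against -0.0025 over all tested genes, and members ran from -0.78 to 0.19. For 67 of the 80, the 95% interval of the fold change lay within 1.5-fold in either direction.

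Between the subunits these counts were alike. Of the 48 tested large subunit genes, 42 had a log2 fold change below 0, with a median of -0.10, and 9 passed an unadjusted p under 0.05, all lower. Of the 32 small subunit genes, 28 were below 0, with a median of -0.13, and 6 passed it, all lower. Without WT 1 and KO 2, 41 large and 26 small subunit genes were below 0, with medians of -0.10 and -0.07. Without KO 2 alone these were 39 and 24, with -0.05 and -0.07. The 10 members above 0 were Rpl5, Rpl7, Rpl17, Rpl22l1, Rpl26, Rpl30, Rps3a1, Rps7, Rps24 and Rps25.

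**Figure D2:**
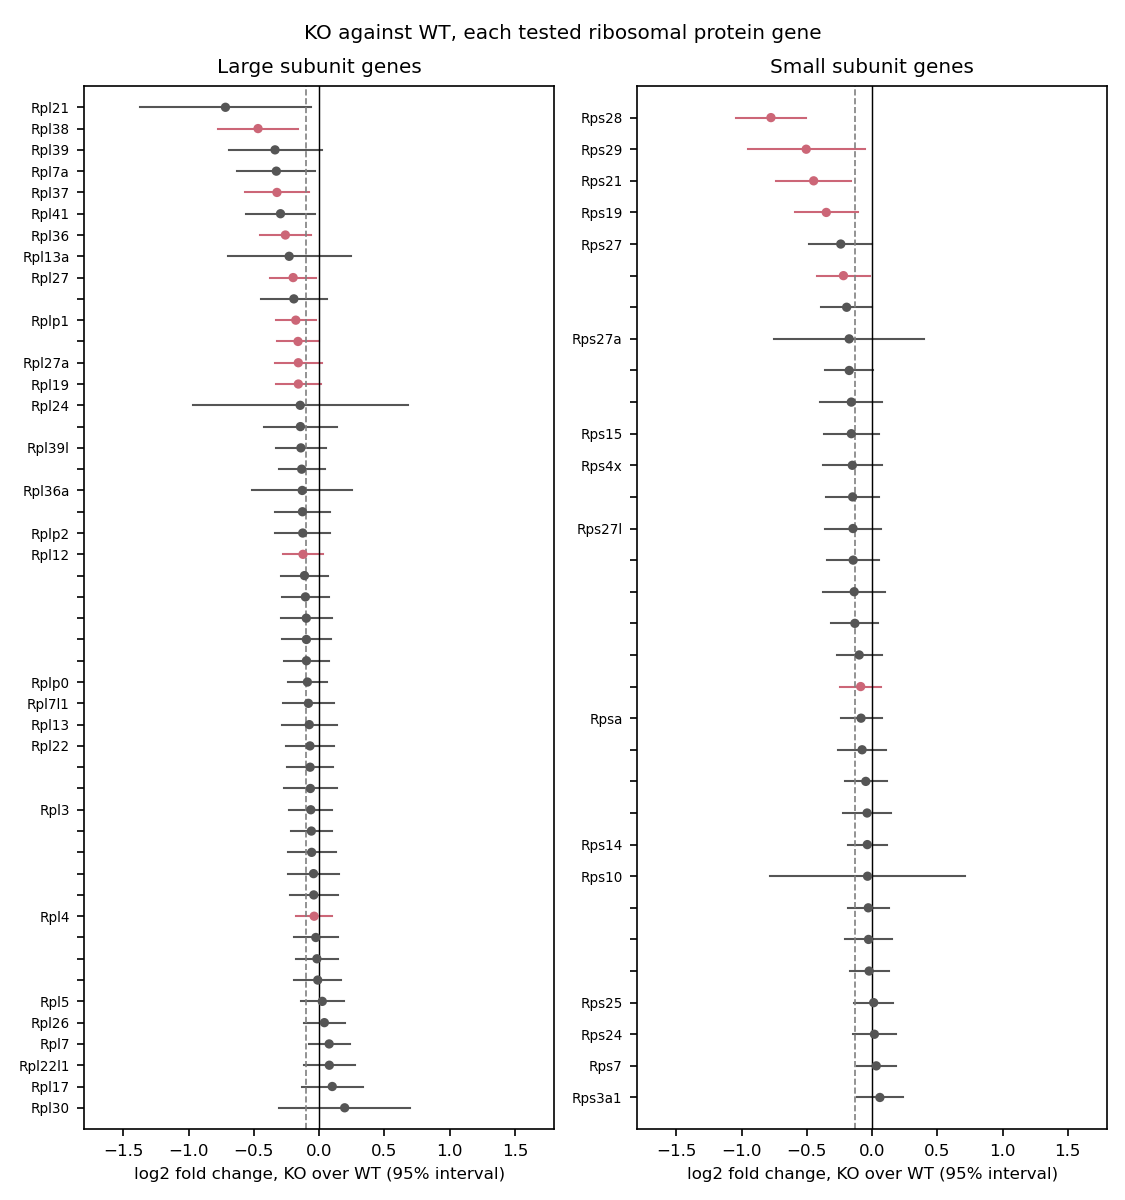
Log2 fold change of KO over WT (horizontal axis) with its 95% interval for each tested member, 1 row a gene with the members named in the text labelled, ordered within the large and the small subunit; red marks genes whose WT and KO libraries do not overlap and the dashed line is the subunit's median. Rps28 lies farthest left among small subunit genes at -0.78, and the medians are -0.10 and -0.13.

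All 3 KO libraries lay below all 3 WT libraries for 16 members (20%), and above them for 0. Over all tested genes these shares were 4.63% and 4.69%. Among them were Rpl4, Rpl12, Rpl19, Rpl27, Rpl27a, Rpl36, Rpl37, Rpl38 and Rplp1 of the large subunit and Rps19, Rps21, Rps28 and Rps29 of the small. The gap between the highest KO and the lowest WT library, as a share of that WT library, was 24.7% for Rps28, 11.0% for Rps21 and 8.58% for Rpl37. For the other 13 it was at most 4.39%.

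The count of low members rested in part on KO 2. Without KO 2, 63 of 80 members were below 0, the median was -0.05, and 5 passed an unadjusted p under 0.05 in the lower direction and 1 in the higher, where 2.72% of all tested genes passed in the lower direction. Without both WT 1 and KO 2, 67 were below 0, the median was -0.09, and 10 passed in the lower direction and 1 in the higher (3.89% of all tested genes in the lower direction). Without WT 2 the numbers were 63, -0.08 and 6 (0 higher; 1.34% of all tested genes lower). Without WT 1 they were 71, -0.14 and 21 (0 higher; 4.14% lower). The direction of the median was thus the same in each of these, while its size varied.

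Among small subunit genes, Rps28 was listed at 622, 603 and 555 reads in WT and 310, 303 and 410 in KO. In CPM these were 34.5, 33.6 and 30.6 against 17.4, 17.2 and 23.0, or 32.9 ± 2.07 against 19.2 ± 3.29 (SD, n = 3). The groups did not overlap, and KO 3 lay closest to WT. The log2 fold change was -0.78 (95% interval -1.04 to -0.51), with an unadjusted p of 1.89e-05 and an adjusted p of 0.182 by edgeR, so it did not pass. It passed with DESeq2 (adjusted p 0.000167). It also passed with edgeR without KO 3, at -0.93 (adjusted p 0.0493), and was -0.66 (adjusted p 0.200) without WT 1 and KO 2.

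Copies of Rps28 hold about as many reads as the gene. Of its 9 annotated processed copies in sense orientation, 8 had reads, and together they held 52.5% of the sum of gene and copies. Gm10443, whose sequence equals the coding sequence printed above, had 403, 404 and 551 reads in WT and 504, 255 and 407 in KO, a log2 fold change of -0.20 (edgeR unadjusted p 0.327). Its groups overlapped, and its highest libraries were WT 3 and KO 1. Gene and copies together came to 61.6, 61.6 and 67.3 CPM in WT and 52.1, 34.9 and 51.5 CPM in KO. These sums still did not overlap (63.5 ± 3.30 against 46.1 ± 9.75, SD, n = 3), with a log2 fold change of -0.46, an unadjusted p of 0.0031 and an adjusted p of 0.969 by edgeR. The sources do not state how reads that match both gene and copy were counted.

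**Figure D3:**
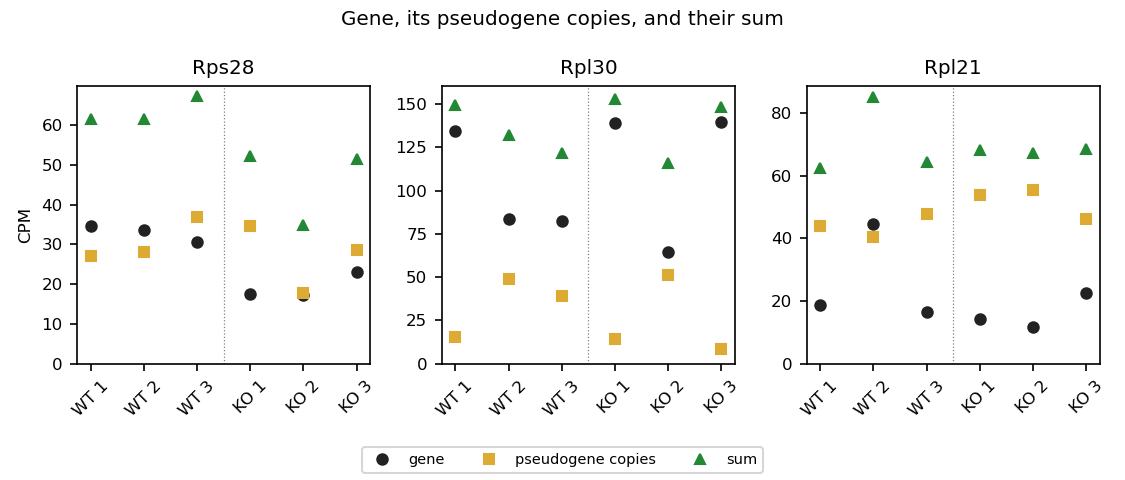
CPM (vertical axis) of Rps28, Rpl30 and Rpl21, of their annotated processed copies, and of both summed, in each library; the dotted line parts WT from KO. The sum for Rps28 is lower in each KO library than in each WT library, while the Rpl30 gene is high in the libraries where its copies are low.

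Other small subunit genes with low p included Rps21, Rps29 and Rps19. Rps21, on chromosome 2, had 37.7, 40.5 and 40.6 CPM in WT and 33.6, 21.96 and 31.6 CPM in KO, a log2 fold change of -0.45 (95% interval -0.73 to -0.16). KO 2 was lowest, and the difference was -0.31 without WT 1 and KO 2 and -0.28 without KO 2 alone. Rps29, a zinc-binding protein of the small subunit head, had 105, 81.7 and 80.1 CPM in WT and 76.6, 35.3 and 76.0 CPM in KO. Its log2 fold change of -0.50 (95% interval -0.95 to -0.06) came to -0.08 without WT 1 and KO 2, the highest and lowest of its libraries, and to -0.22 without KO 2 alone. Rps19, the gene most often mutated in Diamond-Blackfan anaemia, had 85.4, 91.9 and 102 CPM in WT and 84.6, 60.3 and 73.9 CPM in KO, a log2 fold change of -0.35. This was -0.29 without the pair and -0.23 without KO 2. None of these 3 passed (edgeR adjusted p 0.965 for each).

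At the other end, Rps7, which takes part in small subunit assembly, and Rps3a1 had log2 fold changes of 0.03 (95% interval -0.12 to 0.18) and 0.06 (-0.11 to 0.23). Rps7 had 394, 441 and 410 CPM in WT and 438, 399 and 435 CPM in KO. For these genes the groups overlapped and the intervals leave out a change of 1.5-fold.

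Among large subunit genes the lowest p belonged to Rpl38, a small protein known for its part in translating Hox messages. It had 56.6, 54.8 and 44.6 CPM in WT and 41.9, 27.7 and 43.0 CPM in KO, a log2 fold change of -0.47 (95% interval -0.78 to -0.16), and -0.22 without WT 1 and KO 2 (-0.29 without KO 2 alone). Rpl37 had 93.9, 94.3 and 98.2 CPM in WT and 85.9, 59.8 and 83.1 CPM in KO, with -0.32 on the log2 scale. Rpl36 followed with 168, 184 and 172 CPM against 162, 126 and 150 CPM (-0.26). In these 3 genes KO 2 was the lowest library and the other 2 KO libraries lay closer to WT. Without WT 1 and KO 2 the difference was -0.19 for Rpl37 and -0.19 for Rpl36, and without KO 2 alone it was -0.17 and -0.16.

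Rplp1, an acidic protein of the stalk that recruits elongation factors, and Rpl27 differed less but more evenly. Rplp1 had 253, 282 and 271 CPM in WT and 244, 235 and 233 CPM in KO (log2 fold change -0.18). Rpl27 had 116, 133 and 123 CPM in WT and 107, 113 and 103 CPM in KO (-0.20). The KO libraries of each lay within a narrow range and KO 2 was not the lowest of them. Without WT 1 and KO 2 their log2 fold changes were -0.21 and -0.28. None of these 5 large subunit genes passed (edgeR adjusted p 0.965 for each).

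Rpl41, the shortest ribosomal protein, was listed at 404, 472 and 451 CPM in WT and 446, 282 and 353 CPM in KO. The groups overlapped, through KO 1 and WT 1, and the log2 fold change was -0.30 (95% interval -0.56 to -0.03, edgeR adjusted p 0.965). Without KO 2 it was -0.14 (edgeR unadjusted p 0.156), and without WT 1 and KO 2 it was -0.21. Rpl7, a large subunit protein that binds ribosomal RNA, was among the few above 0, at 252, 252 and 236 CPM in WT and 244, 260 and 275 CPM in KO (log2 fold change 0.08, 95% interval -0.08 to 0.23).

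Levels of different genes were compared as CPM per kilobase of an annotated transcript of each, except for the share of Rpl39l given below. For members this was the transcript with the longest complete coding sequence and, among equals, the shortest. Such a transcript can be long for its coding sequence, as for Rps20, with 3706 bases of which 360 are coding. For Rps4l and Rpl36al, described below, the longest annotated transcript was used. In WT the median was 159 for large and 198 for small subunit genes. Rpl41 (869), Rplp0 (721) and Rpl13 (608) were highest in the large subunit, and Rps14 (641), Rps7 (506) and Rps27 (482) in the small. Proteins needed in about equal amounts thus had messages listed over a wide range. The order depends on the length used: by the gene length in the deposited table, the highest were Rplp0, Rplp1 and Rpl36 of the large subunit and Rps14, Rps15 and Rps7 of the small.

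Rpl3l had the lowest listed level (0.228 CPM per kilobase), with 0 copies and no overlapped exon. The next 3 from below share exons with other annotated genes. Rpl24 (1.44 CPM per kilobase), Rpl13a (3.58) and Rps10 (1.27), which encode common ribosomal proteins, share 71.5%, 59.3% and 66.7% of their transcript with another gene annotated on the same strand, and these partners are listed at 0 reads in all 6 libraries. No other member shared over 50% of its transcript on the same strand. Rps10 itself had 0.999, 0.780 and 0.936 CPM in WT, while its processed copy Rps10-ps2 had 642, 656 and 591 reads there and 601, 517 and 551 in KO. Copies held 97.7% of the summed Rps10 signal and 76.1% of that of Rpl24. The sources do not state how reads over shared exons or copies were counted, so the values of these 3 genes cannot be read as message levels.

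Over the family, 968 annotated sense copies with at least 90% identity over at least 50% of a member's coding sequence were found for 76 members, with a median of 9 a member. Of these, 523 had a read. They held 7.27% of the summed CPM of members and copies, and came to 1015 ± 48.6 CPM in WT and 986 ± 32.8 CPM in KO (SD, n = 3). Copies held over 50% of the sum for 6 tested members and under 10% for 60. Of the 148 copies that passed the filter, 84 had a log2 fold change below 0 (56.8%, against 50.7% of all tested genes) and the median was -0.05. When each member was fitted together with its copies, 71 of 80 were below 0 and the median was -0.09. In that fit 10 members passed an unadjusted edgeR p under 0.05 in the lower direction and 0 in the higher, against 15 and 0 without the copies. Of all tested genes, 2.08% passed in the lower direction there.

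For some members the values of gene and copies have to be read together. Rpl30, whose protein lies at a bridge between the subunits, had 134, 83.4 and 82.7 CPM in WT and 139, 64.7 and 140 CPM in KO. Its copies had 15.4, 48.7 and 38.9 CPM in WT and 14.0, 51.1 and 8.19 CPM in KO. The 3 libraries with the most gene reads thus had the fewest copy reads, mainly at Rpl30-ps10 and Gm12191. The sums were closer together, at 150, 132 and 122 CPM in WT and 153, 116 and 148 CPM in KO. The log2 fold change was 0.19 for the gene alone and 0.05 with the copies. Without WT 1 and KO 2, Rpl30 alone was called higher by edgeR at 0.75 (adjusted p 0.00241).

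Rpl21 had 18.6, 44.6 and 16.6 CPM in WT and 14.3, 11.8 and 22.4 CPM in KO. WT 2 set its log2 fold change of -0.72 (edgeR adjusted p 0.965), and the other 5 libraries overlapped. Its 75 copies held 69.1% of the sum, and with them the values were 62.5, 84.9 and 64.3 CPM in WT and 68.1, 67.2 and 68.6 CPM in KO, a log2 fold change of -0.05. WT 2 remained the highest library in the sum. For Rpl7a and Rpl17, large subunit genes whose copies held 72.9% and 76.3% of the sum, log2 fold changes of -0.33 and 0.10 came to -0.03 and -0.0034 with the copies. Rps27a, which encodes a ubiquitin fused to a small subunit protein, varied as widely without such copies (128, 80.2 and 151 CPM in WT, 168, 85.7 and 64.5 CPM in KO). Its copies held 5.69% of the sum and the groups overlapped. Across the 80 members the highest library was a median of 1.254 times the lowest, and it reached 1.5 times for 17.

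The X-linked members Rpl39, Rpl36a and Rps4x were among the low ones per kilobase in WT testis, at 28.2 ± 4.90, 17.7 ± 2.80 and 29.6 ± 2.17 CPM per kilobase (SD, n = 3). They ranked 44 and 46 of 49 large subunit genes and 31 of 32 small subunit genes. All 3 had log2 fold changes below 0, at -0.34, -0.13 and -0.15, and none passed edgeR's test at an unadjusted p under 0.05.

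Rpl39l stood far above Rpl39. It had 223, 251 and 226 CPM in WT and 240, 192 and 203 CPM in KO, while Rpl39 had 16.9, 20.4 and 14.4 CPM in WT and 14.0, 10.7 and 16.3 CPM in KO. Per kilobase of transcript, Rpl39l was 14.7, 13.7 and 17.4 times Rpl39 in WT and 19.1, 19.99 and 13.9 times in KO. The share of Rpl39l in the pair used the gene length in the deposited table instead, so it does not match these ratios. By that length it was 95.9% ± 0.48 in WT and 96.4% ± 0.72 in KO (SD, n = 3). The ranges overlapped, and the two-sided exact permutation test gave p = 0.3, where 3 against 3 libraries can reach no less than 0.1. Log2 fold changes were -0.14 for Rpl39l (95% interval -0.33 to 0.05) and -0.34 for Rpl39 (-0.70 to 0.02). Without WT 1 and KO 2 they were -0.10 and -0.20, and without KO 2 alone -0.07 and -0.18. Rpl39 has 18 annotated copies, 7 of them with reads, which held 5.53% of the sum of gene and copies, while Rpl39l has 0. How reads that match both Rpl39 and a copy were counted is not stated, so its level and the ratios carry that limit.

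Rps4l, listed as a transcribed processed pseudogene on chromosome 6 and so not a member, resembles X-linked Rps4x. It was 4.46 ± 0.687 times Rps4x per kilobase in WT and 4.66 ± 0.520 times in KO (SD, n = 3). Rpl36al, an autosomal relative of Rpl36a on chromosome 12, was the other way round, at 0.102 ± 0.024 times in WT and 0.104 ± 0.062 times in KO. It rested on 24 to 50 reads a library. An autosomal relative above the X-linked gene was thus seen for 2 of these 3 pairs.

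The remaining paralogs lay below the gene they resemble. Rpl22l1 was 0.552 ± 0.059 times Rpl22 in WT and 0.613 ± 0.051 times in KO. Rps27l, a p53-responsive paralog, was 0.207 ± 0.029 and 0.221 ± 0.025 times Rps27. Rpl7l1, related to a factor of large subunit assembly, was 0.156 ± 0.010 and 0.140 ± 0.010 times Rpl7. Rpl3l, at 2 to 8 reads, was 0.00169 and 0.00168 times Rpl3. The WT and KO ranges of the ratio overlapped for every paralog pair, for Rpl7l1 only through WT 1 (0.145) and KO 1 (0.152).

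**Figure D4:**
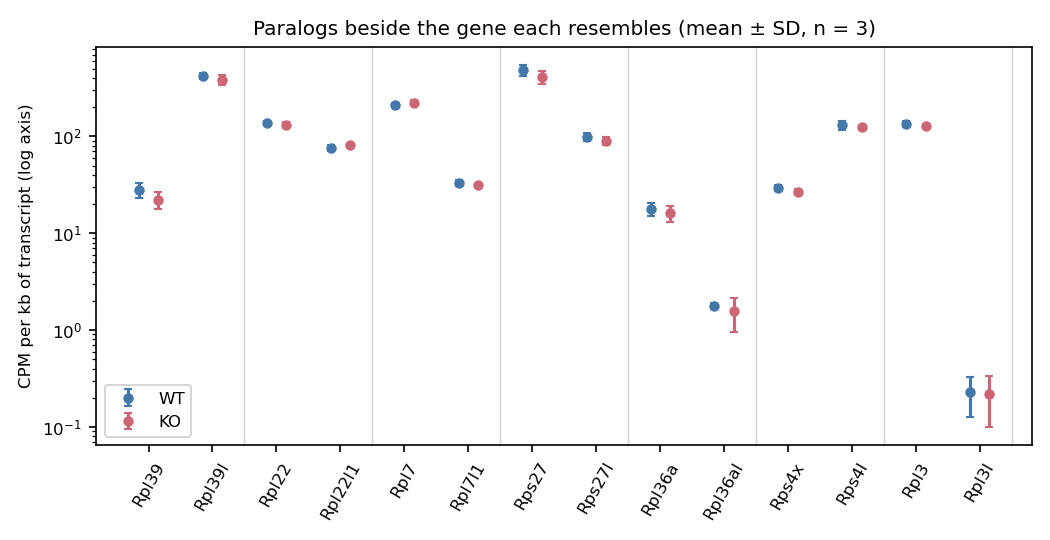
WT (blue) and KO (red) level of each paralog and of the gene it resembles, in CPM per kilobase of transcript on a log axis, as mean ± SD (n = 3). Rpl39l at 424 stands above Rpl39 at 28.2 in WT, and Rps4l above Rps4x, while the other 5 paralogs lie below the gene they resemble.

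The transcripts of this family are short, and the low values in KO 2 were deepest among the shortest. The 40 tested members with the shortest transcripts had a median log2 fold change of -0.14, with 36 below 0, and the 40 longest had -0.08, with 34 below 0. In KO 2 the median deviation was -0.19 for the shortest 40 and -0.12 for the longest 40. Spearman's rho between a member's deviation and its transcript length was -0.22, -0.37 and -0.09 in WT and -0.14, 0.35 and 0.14 in KO, as a description over 80 genes that share libraries. Over all tested genes, rho with the deposited gene length was 0.08, -0.09 and -0.03 in WT and -0.16, 0.16 and -0.04 in KO. The positive sign in KO 2 was thus not particular to this family. A trend on the deposited gene length was also removed, over all tested genes, from differences of mean log2 CPM. There 68 of 80 members were below 0, with a median of -0.11. Gene and transcript length can differ widely (1464 and 271 bases for Rps28), so this does not remove a trend on transcript length. The part of transcript length in the single differences was not tested.

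**Figure D5:**
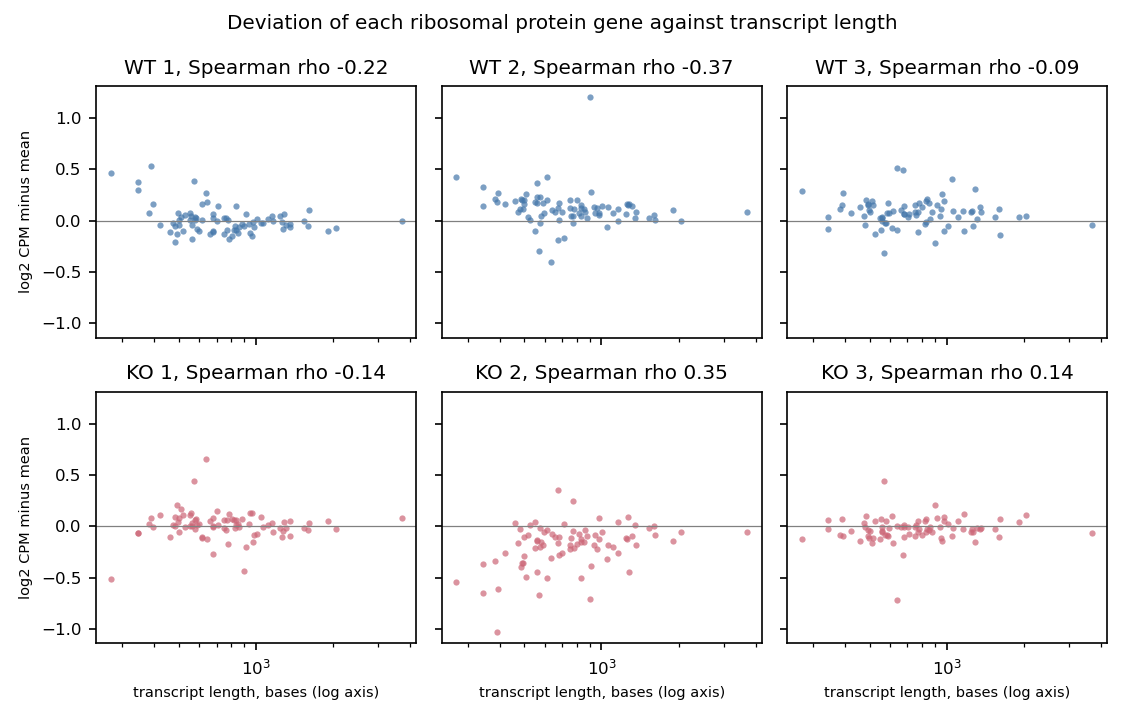
Deviation of each tested member from its mean over the 6 libraries (log2 CPM, vertical axis) against transcript length in bases (log axis), 1 panel a library. In KO 2 the shortest transcripts lie lowest (rho 0.35), and in WT 2 they lie highest (rho -0.37).

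Many ribosomal protein genes carry small nucleolar RNA genes in their introns. The 29 members with such a gene inside had a median log2 fold change of -0.08, with 25 below 0 (86.2%) and 4 lower at an unadjusted edgeR p under 0.05 (13.8%). The 51 tested members without one had a median of -0.13, with 45 below 0 (88.2%) and 11 lower at that p (21.6%). In both sets 0 passed in the higher direction. Over all tested genes 50.7% were below 0 and 2.22% passed in the lower direction.

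RefSeq promoters (GRCm38.p6, the same assembly as mm10; 250 bases before to 50 after the start) matched 61 of the 81 members, with 73 promoters. The motif CCGGAAG, read on both strands and bound by ETS factors, was in 27 of them (37%), against 8.86% of all 32851 promoters. The motif CCATNTT, known from YY1 sites, was in 24 (32.9%, against 16.1%), and GGGCGG, known from SP1 sites, in 43 (58.9%, against 35.7%). TATAAA was in 7 (9.59%, against 13.6%). A run of at least 9 C or T within 30 bases of the start, on the sense strand, was in 35 (47.9%, against 15.6%). The stretch from 80 bases before to 20 after the Rps28 start (minus strand, chr17:33824543-33824642) is shown as the promoter of the member that differed most, with its CCATNTT match in capitals. No run of 9 pyrimidines lies within 30 bases of this start.
Rps28 promoter: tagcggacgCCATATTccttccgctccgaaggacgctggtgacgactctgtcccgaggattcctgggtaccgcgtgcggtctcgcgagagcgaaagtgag

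Genes that work beside the ribosomal proteins were read from fixed lists, and edgeR called none of them at an adjusted p under 0.05. Fau, which encodes a ubiquitin-like fusion to a ribosomal protein, had a log2 fold change of -0.09, and Rack1, a scaffold on the small subunit, had -0.11. Rack1 had 155 ± 7.96 CPM in WT and 143 ± 2.07 in KO, without overlap (SD, n = 3). Among the 18 translation factors whose messages also carry a TOP motif, 7 were below 0 (38.9%, against 50.7% of all tested genes). Their median was 0.02, against -0.0025 over all tested genes. Of these, Eif3e, a subunit of an initiation complex, had 168 ± 6.74 CPM in WT and 188 ± 7.77 in KO, and Naca, which binds nascent chains, 283 ± 10.7 and 304 ± 13.1, both without overlap. Of 15 regulators of TOP messages, 6 were below 0, with a median of 0.02, and the named Larp4 (log2 fold change 0.14) and Tsc2 (-0.12), a brake on mTOR, overlapped between groups.

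Ribosome assembly genes and RNA polymerase I subunits had medians closer to that of all tested genes than the members had. Of 44 assembly genes 25 were below 0, with a median of -0.01. Gar1, of the pseudouridylation complex, had 15.3 ± 1.59 CPM in WT and 12.3 ± 0.977 in KO, and Nop2, a ribosomal RNA methyltransferase, 42.0 ± 1.06 and 47.9 ± 3.15. Of 14 polymerase I genes 9 were below 0, with a median of -0.05, among them Polr1c (-0.19) and Znrd1 (-0.23). All of these medians came from the same fit as that of the members, -0.11.

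Marker lists of testis cell types also differed between the libraries, and none of their genes was called. The 10 macrophage markers were all below 0, with a median log2 fold change of -0.36 and sums of 110 to 136 CPM in WT and 90.04 to 112 in KO. All 9 tested Leydig markers were below 0 (median -0.30), with sums of 287 to 956 and 315 to 740 CPM. Of 10 Sertoli markers 6 were below 0 (median -0.19; sums 573 to 667 and 507 to 561 CPM), and of 10 spermatogonia markers 7 (median -0.13; 157 to 174 and 144 to 160 CPM). All 3 tested blood markers were below 0 (median -0.46), with sums of 27.4 to 43.5 and 16.9 to 32.1 CPM. Spermatocyte markers had a median of -0.01 with 5 of 10 below 0, round spermatid markers 0.04 with 1 of 10, and elongating spermatid markers 0.05 with 4 of 10. Endothelial and peritubular myoid markers had medians of -0.08 and -0.06. Of 8 epididymis markers, 1 passed the filter and 3 had 0 reads in all libraries. The part of these cell types in the ribosomal protein values was not tested.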

How the data were processed

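Reads per gene were deposited by the authors as raw counts, 1 column a library, with gene length and biotype, per the file header. HISAT2 2.0.0 and the build mm10 are named, per the submitters' processing notes. The counting tool, annotation release, strand setting and treatment of reads with several matches are not stated there or in the labels. Library kit and RNA isolation (TRIzol) are as in the labels' protocols.

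Counts were tested with edgeR 4.0.16 (filterByExpr with a minimum count of 10 and total of 15, TMM, glmQLFit and glmQLFTest, Benjamini-Hochberg over 19320 genes, threshold 0.05) over all 6 libraries without covariate; the common coefficient of biological variation was 0.112. The test was checked on simulated data. Intervals cover 95% and errors are SDs over 3 libraries. No pair of libraries of a group agreed within sampling noise. Log2 CPM used a prior count of 2. DESeq2 1.42.0 and limma 3.58.1 (R 4.3.3) were alternatives. Exons, transcripts and coding sequences came from GENCODE M21, copies from blastn 2.17.0 with at least 90% identity over at least 50% of a coding sequence. Columns were matched by name, and 0 were left over.

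Members and lists were chosen with earlier results of these data known. Some genes that the name pattern or the lists hold are not reported here. Named by rule were Rps28, the paralogs with the genes they resemble, the smallest p in each direction and the highest and lowest levels in each subunit (by deposited gene length), and up to 2 genes a list. Rpl7a, Rpl21, Rpl30, Rpl41, Rps27a, Rpl13 and members named only in counts were named after their values were seen.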

Additional observations from a re-analysis of the deposited data

How the results depend on the processing

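Leaving Rps28 aside, 781 of 794 values of the other 42 named genes over 19 alternatives kept direction and side of the threshold; 9 changed sign, 3 passed the threshold (Rpl38, Rps21 and Rps29, without the low-count filter) and 1 moved. The members' median log2 fold change was below 0 in every alternative run. Genes called over the whole table numbered 1, but 50 without the low-count filter, 2 with DESeq2, 9 without WT 1 and KO 2, and 1 to 3 when single libraries were left out. Members called lower numbered 0, but 5 without the filter (Rpl21, Rpl38, Rps21, Rps28 and Rps29), 1 with DESeq2 (Rps28), and 0 to 1 with single libraries left out. Rps28 passed at -0.78 without the filter and -0.77 with DESeq2, and ran from -0.93 (without KO 3, where it passed) to -0.70 with single libraries left out; the cause was not tested. Named values that changed sign lay close to 0 or rested on few reads: Rps10 to 0.024 without WT 1 and KO 2 (-0.13 to 0.040 with single libraries left out, above 0 without WT 1), Rpl17 to -0.0033 with named pseudogenes added, -0.0034 with sequence copies added (an alternative chosen after seeing the data) and -0.0044 to 0.20 with single libraries left out (below 0 without KO 2). Single libraries also changed the sign of Rps7 (-0.0042 to 0.078, below 0 without WT 1), Rpl24 (-0.41 to 0.13, above 0 without WT 3), Rpl36a (-0.26 to 0.021, above 0 without KO 2) and Rpl36al (-0.51 to 0.040, above 0 without KO 3). In the run with a trend on gene length removed the target was at -6.58, against -10.6 by edgeR. That run used differences of mean log2 CPM (prior count of 2) and gave no p-value, so this shift does not measure the trend.

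Replicate numbers did not pair the libraries: deviations of same-numbered libraries correlated at -0.17, -0.03 and 0.11, and 1 of 3 WT libraries correlated best with its own number. With the replicate number as a block, 1 gene and 0 members were called, 70 of 80 members were below 0, and Rps28 was at -0.78. Depth limits Rpl3l, Rps10, Rpl24 and Rpl36al, whose values rest on few reads.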
